A study of Mus musculus with 16 samples.

Results

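Clec7a, Trem2, Cd33 and Tyrobp, with Fcer1g, Syk, Plcg2 and Inpp5d, encode receptors by which microglia sense their surroundings, the adaptors of those receptors and the first enzymes behind them. These 8 genes of the 53801 in the deposited table were chosen by their biological role, with earlier results of the same libraries known: Clec7a had passed the threshold in both knockout comparisons below, and Tyrobp within a shorter gene list. Their values in those comparisons are therefore given as a description, and no test of them is used as support. RNA was measured in cortex of C57BL/6 mice by QuantSeq 3' mRNA sequencing, which counts polyadenylated 3' ends after removal of PCR duplicates by molecular identifiers. Of 16 libraries, 1 per animal, 6 came from wild-type mice given saline (WT saline, 3 males and 3 females). Another 5 came from Grn knockout mice given saline (KO saline, 4 males and 1 female). The last 5 came from Grn knockout mice given AAV(L):bPGRN into the tail vein at a dose of 300000000000 vector genomes (KO AAV, 3 males and 2 females). From this vector the liver makes a fusion protein, human progranulin joined to the antibody fragment 8D3, which recognises the transferrin receptor of the mouse. Neither the vector's promoter nor the way the knockout was made is stated in the sources used here. Animals were 12 to 12.93 months old, had been treated for 8 months and were perfused with saline before the brain was taken.

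Receptors of this kind signal through pairs of tyrosines. Trem2, a lipid and lipoprotein receptor, has no signalling tail of its own and pairs with the membrane adaptor Tyrobp (DAP12), whose phosphorylated tyrosine motif recruits the kinase Syk. Fcer1g is a related adaptor that serves Fc receptors and several C-type lectins, while Clec7a (Dectin-1), a receptor for beta-glucans, carries a tyrosine motif in its own tail and reaches Syk without an adaptor. Syk activates phospholipase C gamma 2, the product of Plcg2, which releases calcium. The lipid phosphatase SHIP1, the product of Inpp5d, opposes the pathway. CD33 is a sialic acid-binding lectin that is inhibitory in human cells, and the tail of the mouse protein differs from the human one. Microglia and other myeloid cells are the main source of these transcripts in brain, and Clec7a, Trem2 and Tyrobp are known as genes of activated microglia.

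RefSeq promoter windows, from 250 bases before to 50 after the start site in GRCm38.p6, were found for 7 of the 8 genes; Tyrobp was not among them. The windows of the receptors Clec7a, Cd33 and Trem2, and of the adaptor Fcer1g, are shown so that the letters can be compared between genes with different levels in the 3 groups. Capitals mark GAGGAA on either strand (TTCCTC on the reverse strand), a longer form of the GGAA core bound by ETS factors such as the microglial regulator encoded by Spi1. Sequences run 5′ to 3′ along the gene's strand.
Clec7a (chr6:129472730-129473029, minus strand): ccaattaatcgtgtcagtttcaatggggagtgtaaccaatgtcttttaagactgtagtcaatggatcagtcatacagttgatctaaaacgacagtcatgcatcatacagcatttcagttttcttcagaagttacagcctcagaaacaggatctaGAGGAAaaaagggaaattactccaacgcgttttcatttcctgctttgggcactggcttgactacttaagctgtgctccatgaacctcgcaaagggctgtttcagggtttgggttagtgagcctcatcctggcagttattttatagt
Cd33 (chr7:43533122-43533421, minus strand): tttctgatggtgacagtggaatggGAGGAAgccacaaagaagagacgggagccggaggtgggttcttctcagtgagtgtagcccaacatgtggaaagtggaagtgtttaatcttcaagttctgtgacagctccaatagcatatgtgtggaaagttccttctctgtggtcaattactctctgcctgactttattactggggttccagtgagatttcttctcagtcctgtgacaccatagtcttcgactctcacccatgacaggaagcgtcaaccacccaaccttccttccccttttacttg
Trem2 (chr17:48346151-48346450, plus strand): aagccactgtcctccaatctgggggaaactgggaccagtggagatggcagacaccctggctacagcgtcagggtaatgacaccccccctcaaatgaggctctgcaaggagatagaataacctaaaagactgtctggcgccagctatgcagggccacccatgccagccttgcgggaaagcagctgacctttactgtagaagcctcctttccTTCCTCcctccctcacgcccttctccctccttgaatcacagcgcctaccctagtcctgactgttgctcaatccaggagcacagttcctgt
Fcer1g (chr1:171234300-171234599, minus strand): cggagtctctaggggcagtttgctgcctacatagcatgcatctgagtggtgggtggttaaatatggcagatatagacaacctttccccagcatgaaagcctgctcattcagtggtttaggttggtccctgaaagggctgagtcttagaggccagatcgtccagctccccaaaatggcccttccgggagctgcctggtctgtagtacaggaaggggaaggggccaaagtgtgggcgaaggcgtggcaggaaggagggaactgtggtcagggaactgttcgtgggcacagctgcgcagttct
GAGGAA was found in 4 of the 7 windows, those of Clec7a (96 bases before the start site), Trem2 (40 before, reverse strand), Cd33 (226 before) and Inpp5d. It was not in the window of Fcer1g, and 28.3% of all 32851 windows of this length held it. The core GGAA was in 6 of the 7 windows and in 96.0% of all windows, each GAGGAA counting there too. Clec7a had a second RefSeq window, not shown here, and the Cd33 window lies inside the longer Cd33 gene of GENCODE M21.

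The libraries held 1351974 to 2119019 counts, and 4 of the 5 KO saline libraries were shallower than every WT saline library. The RNA integrity number was 8 for replicate 3 of WT saline and replicate 4 of KO saline and 9.2 to 9.6 elsewhere. Grn itself had 226 counts over the WT saline libraries and 0 in every knockout library, as the genotypes state. All 21 markers of microglia and all 8 each of neurons, astrocytes, oligodendrocytes and endothelium were detected. Levels below are CPM, which are counts scaled to a common library size, here over TMM-scaled totals of the 10363 genes that passed the count filter, and each ± is an SD over animals. A called gene is one with an adjusted p under 0.05 over those genes in edgeR's quasi-likelihood test. Of the 8 genes, 5 passed the filter, which asked for about 5.78 CPM in enough libraries; Syk, Plcg2 and Inpp5d did not. Clec7a passed through KO saline alone, with 5 of 5 libraries at that level and 0 of the others. A difference had then to follow, and no count over the genes that passed is used as support.

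Clec7a was nearly absent from wild-type cortex, present in every untreated knockout and, in every treated knockout, no higher than in the highest wild-type library. The WT saline libraries ran from 0.553 to 2.65 CPM with a median of 0.769, which rests on 12 counts in all. The highest was replicate 2, with 5 counts, and every other WT saline library stood at or below 1.24 CPM. In KO saline, replicates 1 to 5 stood at 7.26, 8.89, 13.1, 8.68 and 10.5 CPM, from 9, 12, 17, 15 and 17 counts. The KO AAV replicates stood at 0.535, 0, 1.60, 2.26 and 1.25 CPM (median 1.25), from 1, 0, 3, 4 and 2 counts. Replicates 3, 4 and 5 of KO AAV were above every WT saline library but replicate 2. The lowest KO saline library was above the highest library of both other groups, so neither comparison overlapped. Replicate 2 of KO AAV had no count, which allows a level of up to 3 counts.

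Clec7a (ENSMUSG00000079293, chromosome 6, 129461591 to 129472779, minus strand, GRCm38) averaged 1.09 ± 0.810 CPM in WT saline (n = 6), 9.69 ± 2.24 in KO saline (n = 5) and 1.13 ± 0.885 in KO AAV (n = 5). The fitted change was 8.32-fold in KO saline against WT saline (log2 3.06, SE 0.40). Treated against untreated knockouts differed 8.14-fold, downward (log2 -3.02, SE 0.43). Both comparisons use the same 5 KO saline libraries, so that they are not independent. The change in KO AAV against WT saline follows from both of these in the same fit, so the choice of Clec7a bears on it too. It was a log2 change of 0.03 (SE 0.59, 95% interval -1.19 to 1.26, edgeR adjusted p = 0.994), given as a description. The interval spans more than a doubling in either direction. The annotation lists Clec7a as a polymorphic pseudogene, and no annotated exon of another gene overlapped those of any of the 8 genes.

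Clec7a was the 1 gene of the 5 tested that was called in KO saline against WT saline, where 0.0482% of all tested genes were called. It was also the 1 called in KO AAV against KO saline, with a background of 0.0193%. These contrasts were used in choosing the genes, so the counts are given without a reading. In a fit of the males alone, and in a fit with the replicate number as a term, Clec7a was not called in either comparison. With all libraries thinned to the smallest total, Clec7a did not pass the count filter and was not tested. In KO AAV against WT saline edgeR called 0 of the 5, with 0 at an unadjusted p under 0.05 and 0 in DESeq2 and limma-voom, against a background of 0.00965%. In males alone Clec7a ran from 0.553 to 2.65 CPM in 3 WT saline libraries, 7.26 to 13.1 in 4 KO saline libraries and 0 to 1.60 in 3 KO AAV libraries. The single KO saline female stood at 10.5 CPM, the 3 WT saline females at 0.554 to 0.924 and the 2 KO AAV females at 1.25 and 2.26.

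**Figure D1:**
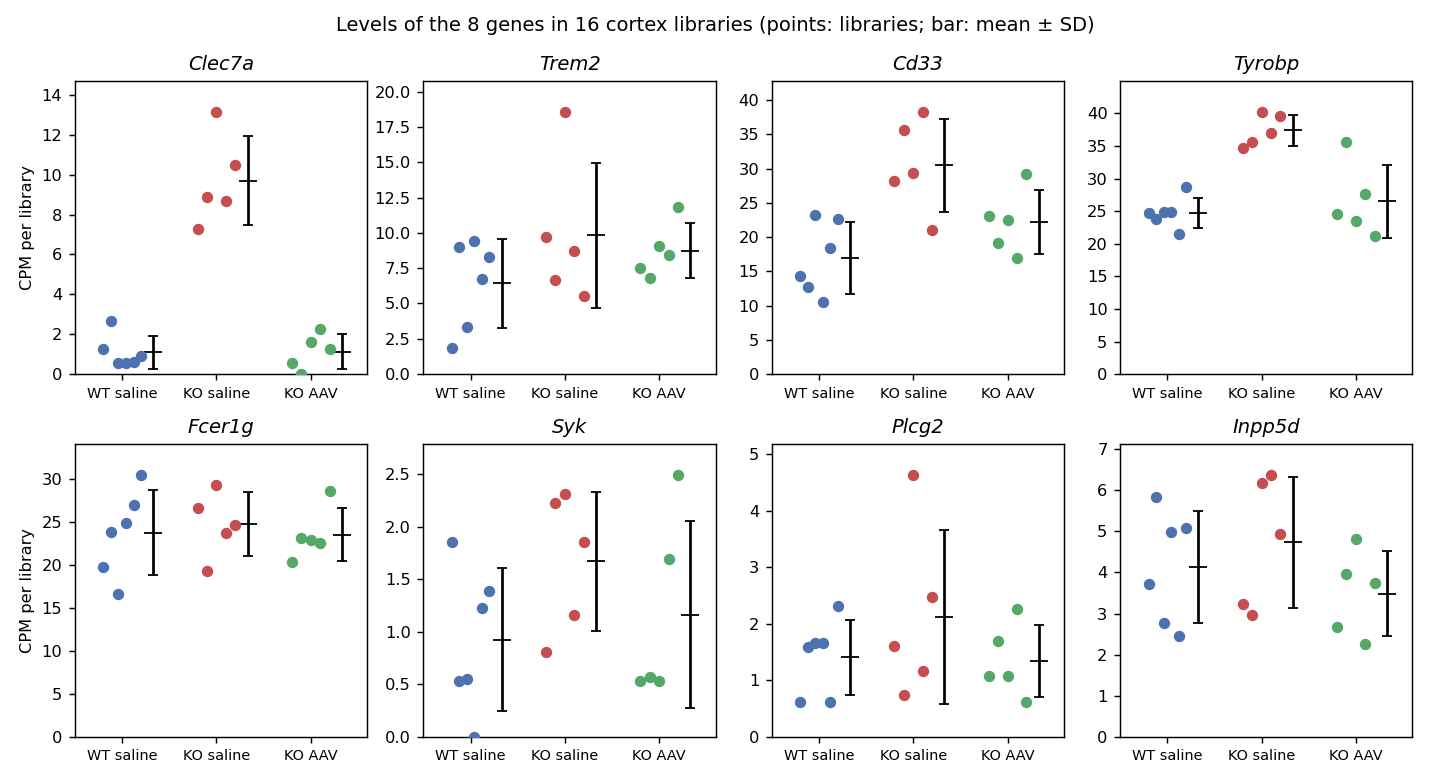
Level of each of the 8 genes in CPM (vertical axis, from 0, scaled per gene) in every library of the 3 groups; points are libraries and the bar is the mean ± SD. The 5 KO saline points of Clec7a lie between 7.26 and 13.1 CPM, above all other libraries, and those of Tyrobp above all WT saline libraries, while the 3 groups of Fcer1g overlap.

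Trem2 varied within each group as much as between them. Its WT saline libraries ran from 1.86 to 9.42 CPM (median 7.53, 72 counts), KO saline stood at 9.68, 6.67, 18.5, 8.68 and 5.56 CPM (69 counts), and KO AAV at 7.50, 6.78, 9.08, 8.46 and 11.8 CPM (77 counts). KO saline replicate 3 was the highest of all 16 libraries, and WT saline replicates 1 and 3, at 3 and 6 counts, were the lowest. The groups overlapped in every comparison. Means were 6.45 ± 3.15 (n = 6), 9.82 ± 5.13 (n = 5) and 8.73 ± 1.95 CPM (n = 5).

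The fitted log2 change of Trem2 was 0.55 in KO saline against WT saline (SE 0.35, 95% interval -0.16 to 1.27; edgeR adjusted p = 0.994). It was -0.15 in KO AAV against KO saline (SE 0.35, interval -0.87 to 0.57; edgeR adjusted p = 1.00) and 0.40 in KO AAV against WT saline (SE 0.34, interval -0.30 to 1.11; edgeR adjusted p = 0.881). All 3 intervals include no change, and those against WT saline include a doubling. Without KO saline replicate 3 the first value was 0.21 and the second turned to 0.20.

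Cd33 stood above every wild-type library in 4 of 5 untreated knockouts, and its mean in treated knockouts lay between those of the saline groups, but no difference passed over all genes. The WT saline libraries ran from 10.5 to 23.2 CPM (median 16.3, 187 counts). KO saline stood at 28.2, 35.6, 29.3, 38.2 and 21.0 CPM, from 35, 48, 38, 66 and 34 counts. KO AAV stood at 23.0, 19.2, 22.4, 16.9 and 29.3 CPM, from 43, 34, 42, 30 and 47 counts. The KO saline library inside the wild-type range, replicate 5, was the female. The 4 KO saline males stood at 28.2 to 38.2 CPM, the 3 WT saline males at 12.7 to 23.2 and the 3 KO AAV males at 19.2 to 23.0. Over all animals the groups overlapped in every comparison. With 1 KO saline female, a difference between the sexes was not tested.

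Means of Cd33 were 17.0 ± 5.30 CPM in WT saline (n = 6), 30.5 ± 6.74 in KO saline (n = 5) and 22.2 ± 4.68 in KO AAV (n = 5). The log2 change in KO saline against WT saline was 0.84 (SE 0.21, interval 0.40 to 1.28), or 1.79-fold. This did not pass over all tested genes (edgeR adjusted p = 0.688, unadjusted p = 0.000730). In KO AAV against KO saline the log2 change was -0.46 (SE 0.22, interval -0.91 to -0.01; edgeR adjusted p = 1.00). In KO AAV against WT saline it was 0.37 (SE 0.22, interval -0.07 to 0.82; edgeR adjusted p = 0.881).

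Tyrobp, the adaptor of Trem2, separated the saline groups completely, with a smaller fold than Clec7a. The WT saline libraries ran from 21.5 to 28.6 CPM (median 24.8, 272 counts), and KO saline stood at 34.7, 35.6, 40.1, 37.0 and 39.5 CPM (271 counts). KO AAV stood at 24.6, 35.6, 23.5, 27.6 and 21.2 CPM (236 counts). Every KO saline library was above every WT saline library. Of the KO AAV libraries 4 of 5 were below every KO saline library, and replicate 2 lay within the KO saline range. That library was also the one with no Clec7a count.

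Tyrobp averaged 24.8 ± 2.31 CPM in WT saline (n = 6), 37.4 ± 2.39 in KO saline (n = 5) and 26.5 ± 5.59 in KO AAV (n = 5). Between the saline groups the log2 change was 0.59 (SE 0.14), or 1.51-fold, and between treated and untreated knockouts it was -0.50 (SE 0.15). Neither passed over all tested genes (edgeR adjusted p = 0.565 and 0.9996). In KO AAV against WT saline the log2 change was 0.10 (SE 0.14, interval -0.20 to 0.39, edgeR adjusted p = 0.916). Of the 5 tested, Clec7a and Tyrobp were the 2 genes whose KO saline libraries were all above WT saline, as were 0.270% of all tested genes. Clec7a alone had KO AAV libraries all below KO saline, as had 0.289% of all tested genes. Both values belong to the contrasts used in choosing the genes.

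Fcer1g, the other adaptor, had much the same range in all groups. Its WT saline libraries ran from 16.6 to 30.5 CPM (median 24.4, 262 counts), KO saline stood at 26.6, 19.3, 29.3, 23.7 and 24.7 CPM (178 counts), and KO AAV at 20.3, 23.2, 23.0, 22.6 and 28.7 CPM (208 counts). All 3 groups overlapped, and the KO saline range lay inside that of WT saline. Means were 23.8 ± 4.98 (n = 6), 24.7 ± 3.73 (n = 5) and 23.5 ± 3.08 CPM (n = 5).

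The log2 change of Fcer1g was 0.05 in KO saline against WT saline (SE 0.17, interval -0.30 to 0.40; edgeR adjusted p = 0.996). It was -0.07 in KO AAV against KO saline (SE 0.18, interval -0.44 to 0.29; edgeR adjusted p = 1.00) and -0.02 in KO AAV against WT saline (SE 0.16, interval -0.37 to 0.32; edgeR adjusted p = 0.983). The interval between the saline groups overlaps that of Tyrobp, 0.30 to 0.88, and the difference between the adaptors was not tested. Set against Tyrobp within each library, Fcer1g had 96.5 ± 20.7 counts per 100 Tyrobp counts in wild type, 66.1 ± 8.97 in untreated knockouts and 92.5 ± 26.6 in treated knockouts. Clec7a had 4.44 ± 3.42, 25.7 ± 4.42 and 4.61 ± 3.40 counts per 100 Tyrobp counts, and its KO saline libraries (20.9 to 32.7) did not overlap those of WT saline (2.22 to 11.1) or KO AAV (0 to 8.16). These ratios carry the Tyrobp values that led to its choice and are descriptions.

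**Figure D2:**
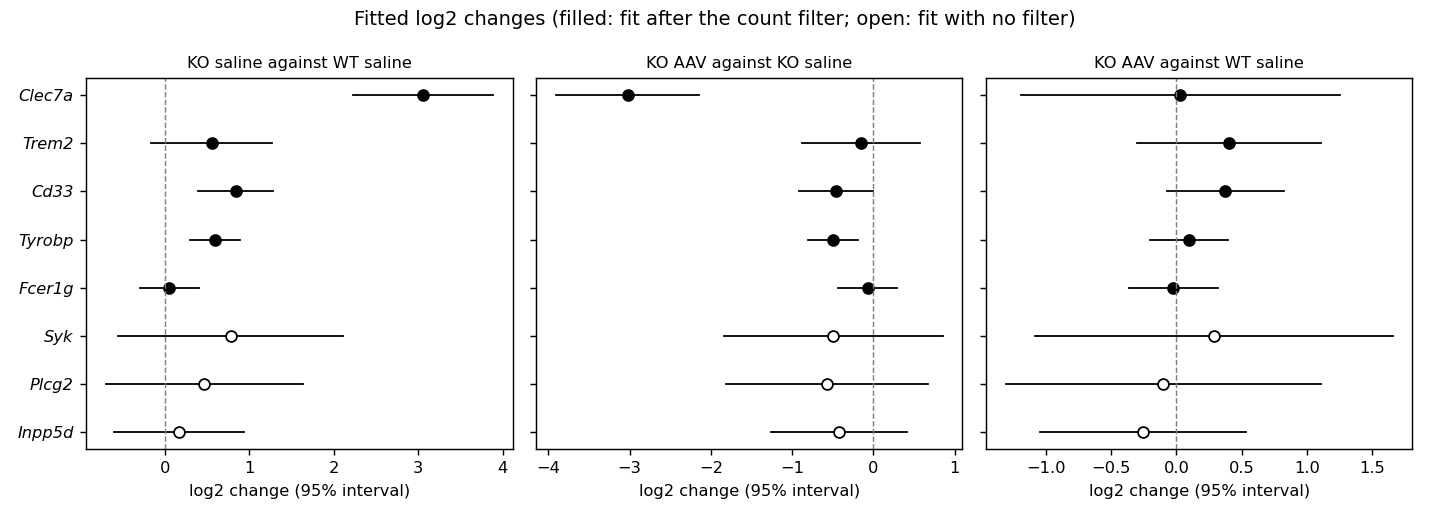
Fitted log2 change of each gene (horizontal axis) with its 95% interval in the 3 comparisons; filled points come from the fit after the count filter and open points, for Syk, Plcg2 and Inpp5d, from a fit of all genes with a count. Clec7a stands at 3.06 and -3.02 in the first and second panels and at 0.03 in the third, where every interval includes 0.

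The 3 enzymes were too sparse for the main test. Syk, the kinase, had 3, 1, 1, 0, 2 and 3 counts in the WT saline libraries, 1, 3, 3, 2 and 3 in KO saline and 1, 1, 1, 3 and 4 in KO AAV. The groups overlapped, with means of 0.926 ± 0.682, 1.67 ± 0.664 and 1.16 ± 0.893 CPM (n = 6, 5 and 5). A two-sided exact permutation test of mean CPM gave p = 0.0952 between the saline groups, 0.310 between treated and untreated knockouts and 0.621 between treated knockouts and wild type. Without WT saline replicate 1 the first was p = 0.0476 in the same exact permutation test, and over 11 such omissions it ran up to 0.219.

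Plcg2, the phospholipase, had 1 to 5 counts per WT saline library (0.614 to 2.31 CPM, median 1.62). KO saline had 2, 1, 6, 2 and 4 counts and KO AAV 2, 3, 2, 4 and 1. Means were 1.41 ± 0.667, 2.12 ± 1.54 and 1.34 ± 0.637 CPM (n = 6, 5 and 5). KO saline replicate 3, the highest Trem2 library, was also the highest in Plcg2 at 4.63 CPM. The exact permutation p was 0.377, 0.357 and 0.887 in the order used for Syk.

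Inpp5d, the opposing phosphatase, had 4 to 11 counts per WT saline library (2.46 to 5.83 CPM, median 4.35). KO saline had 4, 4, 8, 11 and 8 counts and KO AAV 5, 7, 9, 4 and 6. Means were 4.14 ± 1.37, 4.74 ± 1.60 and 3.49 ± 1.02 CPM (n = 6, 5 and 5), with overlap throughout. The exact permutation p was 0.504, 0.183 and 0.385 in that order. These designs can reach p = 0.00216 with 5 against 6 libraries and 0.00794 with 5 against 5 in an exact permutation test. In an edgeR fit with no filter, the log2 changes in KO saline against WT saline were 0.78 for Syk (interval -0.55 to 2.11), 0.47 for Plcg2 (-0.70 to 1.63) and 0.16 for Inpp5d (-0.61 to 0.94). At these depths a doubling of Syk could not be told from no change.

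In whole cortex, fewer or more cells of a type and less or more RNA per cell cannot be told apart. The summed level of all 21 microglia markers was 1052 ± 75.9 CPM in WT saline (932 to 1137), 1292 ± 144 in KO saline (1190 to 1505) and 1089 ± 104 in KO AAV (1020 to 1272), so that KO saline lay above every WT saline library. Ctss alone stood at 216, 337 and 240.3 CPM; without it, a sum chosen after seeing the data, the other 20 markers stood at 836 ± 66.4 (736 to 914), 955 ± 117 (865 to 1119) and 849 ± 89.7 CPM (779 to 1005), and the saline groups overlapped. Of the 21 markers 17 were above 0 in KO saline against WT saline, where 50.9% of all tested genes were (median log2 0.24, against 0.00 over all genes). Ctss was called, as were 0.0482% of all tested genes, and 6 markers were under an unadjusted p of 0.05 in edgeR, as were 4.11% of all genes. Csf1r, Cx3cr1, Gpr34 and Selplg were the 4 below 0 (log2 -0.16, -0.05, -0.14 and -0.21). In KO AAV against KO saline 16 of the 21 markers were below 0, where 52.4% of all tested genes were (median -0.13, against -0.01). EdgeR and limma-voom called 0, with 6 at an unadjusted p under 0.05 in edgeR against 2.49% of all genes, and DESeq2 called 1, Ctss. Per 100 marker counts, Clec7a had 0.101 ± 0.0693 counts in wild type, 0.751 ± 0.144 in untreated knockouts and 0.102 ± 0.0811 in treated knockouts. The KO saline libraries (0.526 to 0.883) did not overlap the others on that scale, and without Ctss (0.698 to 1.21, against 0.0625 to 0.290 in WT saline and 0 to 0.275 in KO AAV) they did not either. As Clec7a was chosen on these contrasts, these values are a description.

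On the same scale Tyrobp had 2.36 ± 0.193, 2.92 ± 0.326 and 2.46 ± 0.621 counts per 100 marker counts, with ranges of 2.10 to 2.65 in WT saline and 2.51 to 3.32 in KO saline that overlapped. Cd33 had 1.64 ± 0.563, 2.39 ± 0.652 and 2.05 ± 0.466, and Fcer1g 2.27 ± 0.500, 1.91 ± 0.173 and 2.18 ± 0.337. Trem2 had 0.606 ± 0.279, 0.737 ± 0.296 and 0.804 ± 0.183. On this scale Tyrobp, Cd33, Fcer1g and Trem2 overlapped between the saline groups, and Clec7a did not. For Tyrobp the overlap was lost without Ctss, and the effect of leaving out any other marker was not tested. Per 100 counts of the other 20 markers Tyrobp had 2.97 ± 0.238 counts in WT saline (2.61 to 3.28) and 3.96 ± 0.489 in KO saline (3.33 to 4.55), which do not overlap. Clec7a and Tyrobp were chosen with this contrast known, and Clec7a passed the filter through KO saline alone. Their separation on this scale is a description, and the share of all genes that separate on it is not given.

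**Figure D3:**
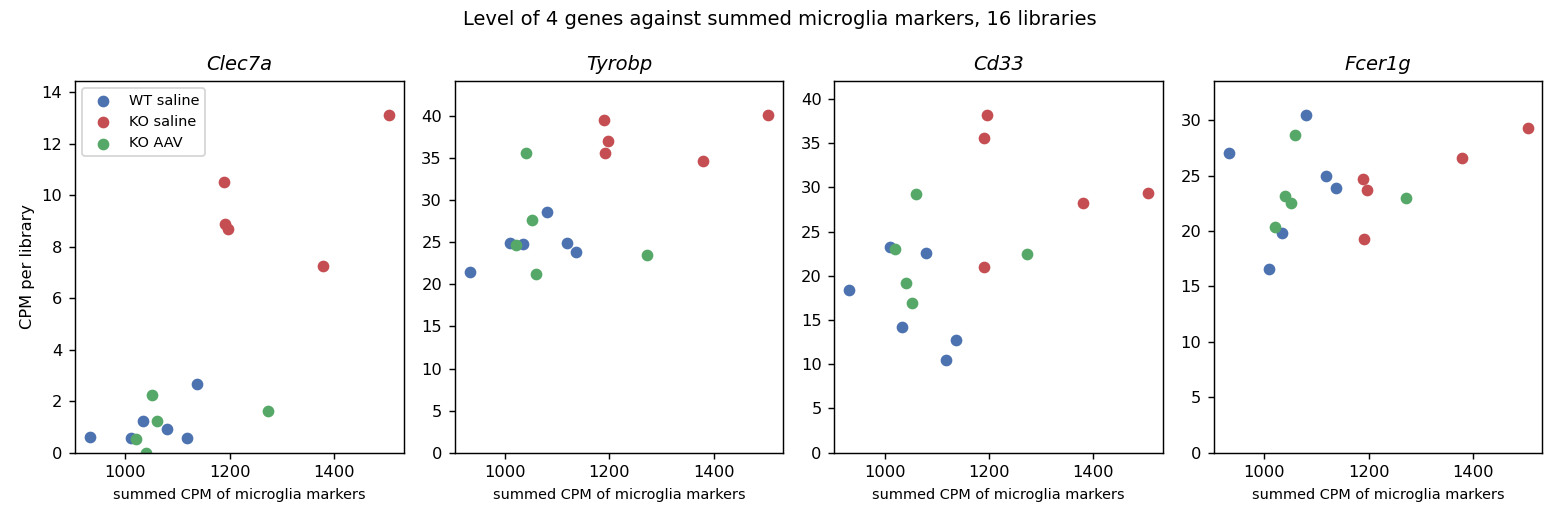
Level of Clec7a, Tyrobp, Cd33 and Fcer1g (vertical axes, CPM per library) against the summed CPM of 21 microglia markers in the same library (horizontal axis), coloured by group. KO saline libraries lie at marker sums of 1190 to 1505 CPM, and a KO AAV library at 1272 has a Clec7a level of 1.60 CPM.

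Other cells could also carry these transcripts. All 12 monocyte and neutrophil markers had counts, and their sum was 7.18 ± 4.59 CPM in WT saline (2.31 to 15.0), 17.6 ± 8.06 in KO saline (9.26 to 29.8) and 5.35 ± 3.11 in KO AAV (2.49 to 9.60). S100a8 led the list, at 3.60, 9.45 and 3.02 CPM. These cells express Clec7a, Cd33, Tyrobp and Fcer1g too, and their part in the results was not tested. The 10 border-associated macrophage markers summed to 15.7 ± 5.11, 19.9 ± 3.73 and 17.7 ± 2.67 CPM, with overlap (9.96 to 21.7, 15.6 to 23.9 and 14.3 to 20.3), and their part was not tested either. Of 13 lymphocyte markers 6 were at 0, among them Cd3e, Cd8a and Cd79a, and the sum was 57.4 ± 4.82, 50.5 ± 7.98 and 51.0 ± 9.45 CPM (53.7 to 64.4, 38.9 to 57.9 and 41.7 to 64.4), carried mainly by Trbc2 and Ighm.

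The genes whose pattern over the 16 libraries was most like that of Clec7a were ranked by Pearson's r of log2 CPM, as a description of libraries that share 3 group means. They were Ctss (r 0.90, Spearman's rho 0.65), Rnaset2a (0.79, 0.77), Gfap (0.78, 0.59), Stat3 (0.77, 0.62) and C1qc (0.77, 0.79). Ctss, the lysosomal protease cathepsin S, stood at 216 ± 16.9 CPM in wild type, 337 ± 29.0 in untreated knockouts and 240.3 ± 15.5 in treated knockouts. C1qc, a complement subunit, stood at 39.7 ± 5.62, 57.7 ± 9.98 and 43.0 ± 10.3 CPM.

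For Tyrobp the nearest were Gfap (r 0.83, rho 0.75), Igfbp5 (0.81, 0.73), Ctss (0.79, 0.61), Ctsz (0.77, 0.76) and Vim (0.74, 0.56), again over 16 libraries. Gfap, an astrocyte intermediate filament, stood at 21.2 ± 6.17, 71.0 ± 15.6 and 30.7 ± 3.49 CPM in WT saline, KO saline and KO AAV. Ctsz, another lysosomal cathepsin, stood at 14.1 ± 2.87, 20.7 ± 3.26 and 14.4 ± 4.29 CPM. Ctss and Gfap stood in both rankings. The genes given here with their levels had their highest mean in KO saline. That follows from the ranking, as Clec7a and Tyrobp were themselves highest in KO saline.

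The other receptors that use Tyrobp or Fcer1g were mostly below the count filter in cortex. Of 24 listed, 8 had no count in any library and 2 were tested, Fcgr3, a low-affinity IgG receptor, and Siglech, a microglial lectin that pairs with Tyrobp. Fcgr3 stood at 16.2 ± 3.82, 15.7 ± 4.74 and 16.3 ± 6.10 CPM in WT saline, KO saline and KO AAV, and Siglech at 12.3 ± 2.53, 13.1 ± 3.84 and 13.6 ± 3.60. Between the saline groups the log2 changes were -0.06 (SE 0.26) and 0.12 (SE 0.23), and between treated and untreated knockouts 0.06 (SE 0.27) and 0.03 (SE 0.23). EdgeR, DESeq2 and limma-voom called 0 of the 2 in any comparison, with 0 at an unadjusted p under 0.05. Below the filter, Clec5a, another partner of Tyrobp, stood at 3.95 ± 0.718, 5.40 ± 2.74 and 5.16 ± 1.33 CPM, and the IgG receptor Fcgr1 at 1.57 ± 0.674, 1.51 ± 1.39 and 1.21 ± 1.04 CPM.

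Of 23 inhibitory receptors and phosphatases 5 were tested. The median log2 change was -0.01 between the saline groups and 0.00 between treated and untreated knockouts, beside 0.00 and -0.01 over all tested genes. Sirpa, the receptor for CD47, had a log2 change of -0.08 (SE 0.14) in KO saline against WT saline, and the collagen receptor Lair1 0.19 (SE 0.20). The phosphatases Ptpn11 and Inppl1 stood at -0.01 (SE 0.13) and -0.20 (SE 0.20). EdgeR, DESeq2 and limma-voom called 0 of the 5 in any comparison. One, Fcgr2b, the inhibitory IgG receptor, was under an unadjusted p of 0.05 in KO saline against WT saline, at a log2 change of 1.15 (SE 0.41; edgeR adjusted p = 0.994), and is named because its value was the largest of the list.

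Of 34 kinases, adaptors and effectors downstream 18 were tested, and 14 of them were above 0 in KO saline against WT saline, where 50.9% of all tested genes were, with a median log2 change of 0.21 against 0.00 over all genes. Between treated and untreated knockouts 13 of 18 were below 0, where 52.4% of all tested genes were, with a median of -0.05 against -0.01. Src, a kinase that phosphorylates receptor tyrosines, stood at 96.1 ± 24.8, 133.6 ± 17.2 and 108.8 ± 15.8 CPM (log2 0.47, SE 0.16, and -0.29, SE 0.17). The ubiquitin ligase Cbl had log2 changes of 0.29 (SE 0.12) and -0.08 (SE 0.13), the kinase Fyn 0.18 (SE 0.15) and 0.03 (SE 0.15), and the adaptor Grb2 -0.06 (SE 0.14) and 0.06 (SE 0.15). EdgeR called 0 of the 18 in any comparison, and DESeq2 and limma-voom also called 0. Under an unadjusted p of 0.05 in edgeR were 3 in the first (Cbl, Cblb and Src), 0 in the second and 1 in KO AAV against WT saline (Cblb). The shares of all tested genes under it were 4.11%, 2.49% and 4.02%. Cblb had log2 changes of 0.66 (SE 0.21), -0.03 (SE 0.21) and 0.63 (SE 0.20) in that order. Many of these genes are expressed in neurons and glia as well, and cortex RNA does not separate the sources.

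Of 16 ligands, co-receptors and processing enzymes 6 were tested. Apoe, a lipoprotein that Trem2 binds, stood at 1354 ± 47.6, 1557 ± 184 and 1293 ± 119 CPM, with a log2 change of 0.20 between the saline groups (SE 0.10; edgeR adjusted p = 0.994) and -0.27 between treated and untreated knockouts (SE 0.10; edgeR adjusted p = 1.00). Clu, another lipoprotein ligand of Trem2, had log2 changes of 0.05 (SE 0.12) and -0.11 (SE 0.12). Adam10 and Adam17, proteases that shed Trem2, stood at 0.06 (SE 0.14) and 0.17 (SE 0.18) in the first comparison and 0.14 (SE 0.14) and -0.30 (SE 0.19) in the second. The list medians were 0.11 and -0.06. EdgeR called 0 of the 6 in any comparison, with 1 under an unadjusted p of 0.05 in each of the 3, against the shares of all genes given for the kinases and adaptors, and DESeq2 and limma-voom called 0. That 1 gene was Apoe in the first and second comparisons and Csf1 in KO AAV against WT saline. Csf1 had log2 changes of 0.69 (SE 0.34), 0.13 (SE 0.33) and 0.82 (SE 0.32) in that order.

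**Figure D4:**
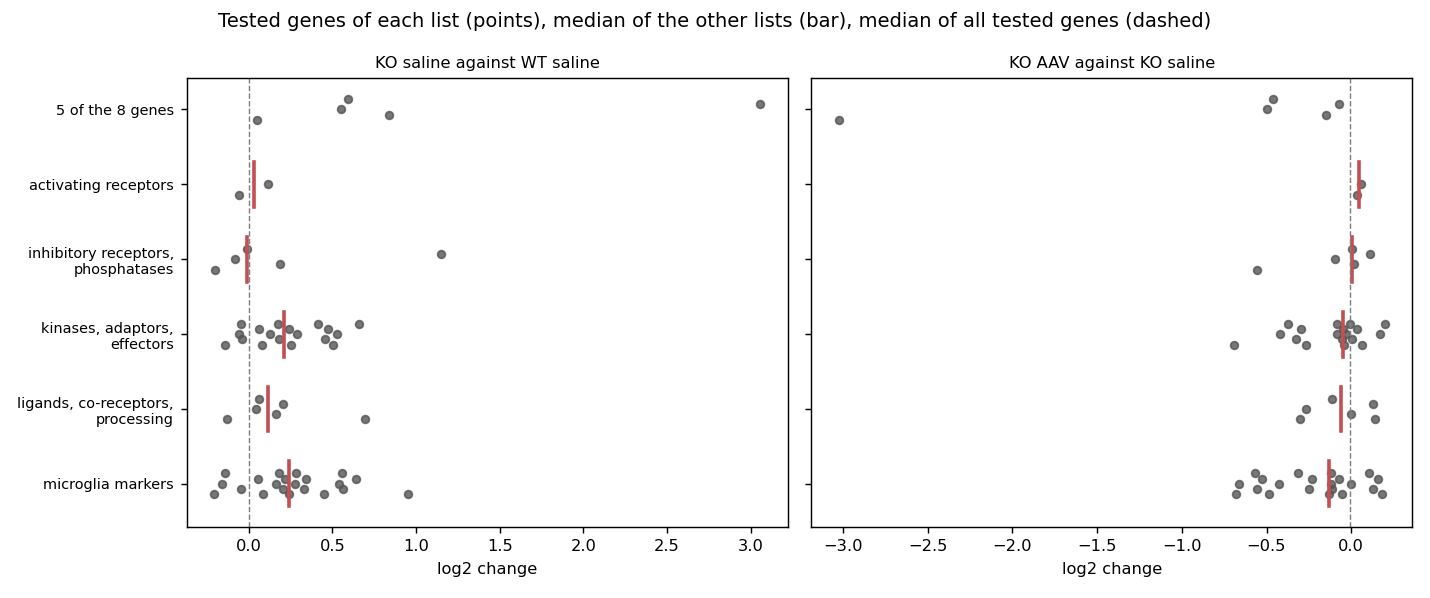
Fitted log2 change (horizontal axis) of each tested gene (points) of the 5 tested genes described above and of the 5 lists named on the vertical axis, with the saline groups compared on the left and treated with untreated knockouts on the right; bars are list medians and the dashed line is the median of all tested genes. Clec7a lies apart at 3.06 and -3.02, and the list medians lie between -0.01 and 0.24 in the first panel and between -0.13 and 0.05 in the second.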

How the data were processed

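Cortex RNA of 16 mice in 3 labelled groups was analysed. The submitters' processing notes name build GRCm38.p6, the aligner STAR, edgeR 3.40.2 in R 4.2, and FastQC 0.11.5 and MultiQC 1.0 for quality. For the counter, strandedness and gene models, the sources used here name nothing. The authors deposited whole-number counts for 53801 genes, the input of every test. No value has more than 2 significant digits, which rounds the 46347 values from 100 upward (17.3% of those above 0); the largest count of the 8 genes is 66. A signal table of scaled counts (CPM), also deposited by the authors, was used as an alternative for the sparse genes; it equals the count over library size times the deposited normalization factor, a ratio, within 8.25%. The RNA integrity number is a score per the labels, and sex and treatment duration come from the deposited annotation.

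Counts were filtered with filterByExpr, scaled by TMM and fitted for all 16 libraries in 1 edgeR quasi-likelihood model with group as the factor (R 4.3.3, edgeR 4.0.16, limma 3.58.1, DESeq2 1.42.0, and version 1.17.8 of data.table), with Benjamini-Hochberg adjustment over 10363 genes and a threshold of 0.05. Log2 CPM for rankings used a prior count of 2. The floor of 3 counts covers counting error only. The genes, lists and tests were chosen with earlier results of these data known. Named were the 8 genes, the 4 genes of highest mean CPM in each pathway list, any called list member, and the 5 genes most like Clec7a and Tyrobp. Fcgr2b, Cblb and Csf1 were added after their values were seen. Replicates are separate animals. All list symbols were matched through the deposited symbols or the annotation. Alternatives covered scaling, filters, DESeq2, limma-voom, the 2 groups alone, sex, RNA integrity, a replicate block, thinning to the smallest total and leaving out each library. Protein motifs were not analysed here.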

Additional observations from a re-analysis of the deposited data

Results flagged for a closer look

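In WT saline, Clec7a stood at 2.65 CPM in replicate 2 (5 counts), apart from the other 5 libraries, which lay between 0.553 and 1.24 CPM. Its gap to the nearest library was 0.673 of the whole range of the group. It was the 1 value set apart among 24 groups of values looked at, where chance sets apart about 1 group in 20. The library stayed below every KO saline library.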

How the results depend on the processing

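Clec7a kept its direction in both knockout comparisons in every setting that gave it a value, which were 11 in each. A filter on a mean CPM of at least 5 dropped it, and so did the count filter after thinning to the smallest total. In KO AAV against WT saline 9 settings gave it a value. Since Clec7a was chosen on both knockout comparisons, its values are a description. Leaving out each library in turn gave log2 changes of 2.92 to 3.51 in KO saline against WT saline and -3.40 to -2.72 in KO AAV against KO saline. With a replicate block (3.03, adjusted p = 0.0939, and -3.01, adjusted p = 0.125) and in males alone (2.59, adjusted p = 0.424, and -3.56, adjusted p = 0.171) it no longer passed. For the block, the same 10 libraries of KO AAV and KO saline without it gave an edgeR adjusted p of 0.0092. The block fit of KO saline against WT saline also left out WT saline replicate 6, and the males-alone fits had fewer libraries. Why the values differ was not tested. Whether the replicate numbers pair the animals was not settled. Same-numbered libraries of KO saline and WT saline correlated at -0.43 to 0.44 after removal of the group means. They were over 0.1 in 2 of 5 pairs, and 1 of 5 correlated best with its own number. For KO AAV and KO saline the range was -0.29 to 0.29, with 2 of 5 best with their own number. Replicates 1 and 2 were males of 12.2 months in all 3 groups, and 5 pairs are too few to decide. Over all genes, KO saline against WT saline called 5 genes, 16 with no filter, 2 with the replicate block and 2 in males alone. KO AAV against KO saline called 2, 4 with no filter, 1 with a mean CPM of at least 5, 1 without the libraries of RIN 8, 1 after thinning, 0 with the replicate block, 0 in males alone and 1 to 2 when libraries were left out. KO AAV against WT saline called 1, and 2 with no filter.

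Directions turned for values that were small in the main fit, and no turned value passed the threshold. The turned values were not all small. Fcer1g turned in KO saline against WT saline with library totals alone (-0.0060) and without the libraries of RIN 8 (-0.027), and in KO AAV against WT saline with the replicate block (0.075), sex as a term (0.014) and males alone (0.15). Clec7a in KO AAV against WT saline turned in limma-voom (-0.14), with RIN as a term (-0.049), without the libraries of RIN 8 (-0.086) and in males alone (-0.97). With libraries left out in turn, the ranges that crossed 0 were -0.042 to 0.13, -0.15 to 0.0047 and -0.10 to 0.072 for Fcer1g in the 3 comparisons, -0.35 to 0.50 for Clec7a and -0.032 to 0.17 for Tyrobp in KO AAV against WT saline, and -0.29 to 0.20 for Trem2 in KO AAV against KO saline, which turned without KO saline replicate 3. Differences in CPM in KO AAV against WT saline crossed 0 for Syk (-0.0944 to 0.424) and Plcg2 (-0.295 to 0.114). The causes were not tested. Syk, Plcg2 and Inpp5d had 32, 43 and 112 counts over all libraries, which limits every statement on them.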
